A study of Mus musculus with 15 samples.

Results

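Mast cell genes were followed across mouse skin in 5 groups of 3 samples each, by bulk RNA-seq. The genes were 9 listed by name, with earlier results of these data known. They were the chymases Mcpt4 and Cma1, the tryptases Tpsb2 and Tpsab1, the carboxypeptidase Cpa3, the receptor Kit, the IgE receptor chains Ms4a2 and Fcer1a, and the histamine-forming enzyme Hdc. Of the 9, 8 had a row among the 18929 genes of the count table, and all 8 passed the filter on low counts that left 15369 genes for testing. Tpsab1 was not analysed here.

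Full-thickness skin wounds 10 mm or 15 mm wide were made on the back of wild-type male balb/c mice aged 4 to 6 weeks, and each was covered with printed Matrigel beads. In the acellular groups the beads held no cells (acellular 10 mm and acellular 15 mm). In the HDB groups, beads with a high density of human umbilical cord mesenchymal stem cells were printed in a sparse pattern and acellular beads filled the space between them (HDB 10 mm and HDB 15 mm). Normal skin was the fifth group. The grafted cells were thus human in a mouse host, and the methods give both day 21 of the wound experiment and 4 weeks of implantation, so the day of sampling is not certain. Replicates are separate samples by their labels, which do not say whether each came from its own animal. The p-values therefore measure the spread between these samples only.

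Mast cells settle in the dermis, close to vessels and nerves, and store their products in granules rich in heparin. When IgE bound to its receptor meets an antigen, the granules are released with histamine and proteases. Chymase and carboxypeptidase A mark the connective tissue type of mast cell that is usual in skin, and stem cell factor acting through Kit keeps these cells alive.

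The total estimated count per sample lay between 15840551 and 18404188. Keratin genes of the epidermis (Krt5, Krt14, Krt1 and Krt10) summed to between 5232 and 15640 CPM in every sample (CPM, the count scaled to the library's total after TMM normalisation), and the fibroblast genes Col1a1, Col1a2, Col3a1 and Pdgfra to between 3051 and 21515 CPM, so the defining genes of skin were present throughout. The 5 skeletal muscle genes summed to between 36544 and 40071 CPM in normal skin and to between 437 and 26461 CPM in the 12 wound samples. Acellular 15 mm replicate 3 stood apart from the other acellular samples in the mast cell genes, and acellular 15 mm replicate 1 in melanocyte genes. The mast cell results that turn on either are given with and without it.

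The genes lie on several chromosomes of the GRCm38.p6 assembly. The chymases are neighbours on chromosome 14 (Cma1 at chr14:55941451-55944675 and Mcpt4 at chr14:56059744-56062310), while Tpsb2 is at chr17:25366308-25368096, Cpa3 at chr3:20215616-20242209, Ms4a2 at chr19:11615517-11623790, Fcer1a at chr1:173221269-173227232, Hdc at chr2:126593659-126624025 and Kit at chr5:75574987-75656722. RefSeq places Tpsab1 at chr17:25343245-25345562, next to Tpsb2, and lists it in this build as a transcribed pseudogene. Whether the counts of Tpsb2 hold reads of Tpsab1 was not tested. Reads of closely related chymases, or of the tryptase pair, may have been divided between copies by the estimated counts, which makes the level of any single copy less certain than that of the group.

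The RefSeq promoter table of this assembly (250 bases before to 50 bases after each start that it lists) had entries for 7 of the 8 measured genes, all but Tpsb2. These were searched on both strands for AGATAA, a form of the site bound by GATA factors such as Gata2, and for CACATG, a form of the site bound by Mitf. The 2 motifs share no overlapping match here. AGATAA was found in 3 of the 7 genes (Cpa3, Ms4a2 and Fcer1a) and in 11.2% of all 32851 promoters of the same length. CACATG was found in Fcer1a and in 14.2% of all promoters. Neither string occurred in the windows of Mcpt4, Cma1, Kit or Hdc. The Hdc window (chr2:126618629-126618928, minus strand) lies inside the annotated gene, so the bases before the annotated start of Hdc were not searched. A match is a string of letters and not a measured binding site. The 3 genes with a match are shown because they cover the granule enzyme and both chains of the receptor described next. Each line gives the bases of the window that lie before the annotated gene, on the minus strand (Cpa3, chr3:20242210-20242431; Ms4a2, chr19:11623791-11623969; Fcer1a, chr1:173227233-173227479), with matches of either motif on either strand in capitals.
Cpa3: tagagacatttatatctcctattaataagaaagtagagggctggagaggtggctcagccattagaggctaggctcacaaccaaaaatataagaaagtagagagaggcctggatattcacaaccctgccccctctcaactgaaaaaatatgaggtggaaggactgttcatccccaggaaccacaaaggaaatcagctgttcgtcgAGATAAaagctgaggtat
Ms4a2: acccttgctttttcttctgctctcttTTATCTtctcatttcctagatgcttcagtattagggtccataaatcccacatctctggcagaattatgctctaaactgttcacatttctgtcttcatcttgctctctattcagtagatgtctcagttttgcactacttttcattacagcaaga
Fcer1a: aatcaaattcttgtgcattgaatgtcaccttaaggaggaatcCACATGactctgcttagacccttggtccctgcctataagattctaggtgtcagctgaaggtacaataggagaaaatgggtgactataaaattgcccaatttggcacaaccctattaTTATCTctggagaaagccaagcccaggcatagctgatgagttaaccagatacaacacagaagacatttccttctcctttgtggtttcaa
Ms4a2 had 3 matches to AGATAA in its whole window, of which 1 falls in the bases shown.

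Of the 8 measured genes, 4 code for enzymes stored in the granules, and these were the most abundant mast cell transcripts per length. In normal skin the mean level per kilobase of the longest transcript was 56.1 ± 21.1 CPM for Mcpt4, 36.9 ± 11.9 for Cma1, 26.5 ± 11.4 for Cpa3 and 17.4 ± 5.91 for Tpsb2 (SD, n = 3). Neighbours in this order did not differ by more than their spread. Kit (3.32 ± 0.669), Ms4a2 (1.76 ± 0.516) and Hdc (1.13 ± 0.206) followed at a distance, and Fcer1a was lowest at 0.0906 ± 0.0380. In HDB 15 mm skin the levels per kilobase of Mcpt4 and Cma1 were almost equal, at 43.6 ± 4.94 and 40.0 ± 6.73 CPM.

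Wounds against normal skin. The granule enzymes had their lowest group means in acellular 10 mm wounds and were close to normal in HDB 15 mm wounds. Mcpt4, the mouse chymase that cleaves thrombin and fibronectin, measured 40.3, 86.8 and 59.2 CPM in normal skin. It was 7.08, 16.4 and 4.91 CPM in acellular 10 mm wounds and 18.8, 18.0 and 27.5 CPM in HDB 10 mm wounds. At 15 mm it was 6.97, 16.5 and 48.4 CPM in acellular wounds and 42.7, 53.6 and 48.7 CPM in HDB wounds. Both 10 mm groups lay wholly below normal skin, both 15 mm groups overlapped it, and acellular 15 mm replicate 3 was at the level of the HDB 15 mm samples. Mcpt4 was lower in acellular 10 mm wounds than in normal skin by a log2 fold change of -2.71 ± 0.62 (SE, adjusted p = 0.0142 by the quasi-likelihood test of edgeR with Benjamini-Hochberg adjustment, used for every adjusted p below unless another tool is named). It passed in 21 of 23 alternative settings (adjusted p up to 0.0651).

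Cma1, the α-chymase of the mouse, likewise had its lowest group mean in acellular 10 mm wounds, though the lowest single sample was acellular 15 mm replicate 1. Its levels were 26.7, 52.4 and 41.6 CPM in normal skin, 7.53, 15.8 and 5.44 CPM in acellular 10 mm wounds and 14.7, 18.5 and 23.2 CPM in HDB 10 mm wounds. They were 5.10, 13.0 and 35.0 CPM in acellular 15 mm wounds and 35.9, 50.6 and 44.2 CPM in HDB 15 mm wounds. The 3 HDB 15 mm samples were all above the 3 acellular 15 mm samples and within the range of normal skin. Cma1 was lower in acellular 10 mm wounds than in normal skin, with a log2 fold change of -2.07 ± 0.58 (adjusted p = 0.0277). It passed in 19 of 23 alternative settings (adjusted p up to 0.107).

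Tpsb2, the tryptase that is held in the granule as a tetramer by heparin, measured 15.0, 30.2 and 22.1 CPM in normal skin. It was 2.34, 5.28 and 1.93 CPM in acellular 10 mm wounds and 7.46, 6.51 and 10.4 CPM in HDB 10 mm wounds, with no overlap between these groups or with normal skin. At 15 mm the values were 3.57, 5.43 and 20.5 CPM in acellular wounds and 18.1, 26.4 and 13.0 CPM in HDB wounds. Tpsb2 fell in acellular 10 mm wounds relative to normal skin (log2 fold change -2.81 ± 0.62, adjusted p = 0.0128). It passed in 22 of 23 alternative settings (adjusted p up to 0.0600).

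Cpa3, the carboxypeptidase that trims peptides and venom toxins in the granule, changed most of the enzymes. Normal skin had 20.7, 53.4 and 41.2 CPM, against 3.14, 5.67 and 2.51 CPM in acellular 10 mm wounds and 6.98, 9.79 and 12.4 CPM in HDB 10 mm wounds. Acellular 15 mm wounds had 3.29, 6.36 and 20.1 CPM and HDB 15 mm wounds 17.3, 31.8 and 20.5 CPM. Cpa3 was below every normal sample in all groups but HDB 15 mm. Its log2 fold change against normal skin was -3.35 ± 0.62 in acellular 10 mm wounds (adjusted p = 0.00737), -1.95 ± 0.58 in acellular 15 mm wounds (adjusted p = 0.0262), -1.98 ± 0.58 in HDB 10 mm wounds (adjusted p = 0.0450) and -0.73 ± 0.56 in HDB 15 mm wounds (adjusted p = 0.424). The call in HDB 10 mm wounds was close to the threshold: Cpa3 passed in 10 of 23 alternative settings, with adjusted p from 0.00601 to 0.142. In acellular 15 mm wounds it passed in 18 of 23 (adjusted p from 0.00264 to 0.124).

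**Figure D1:**
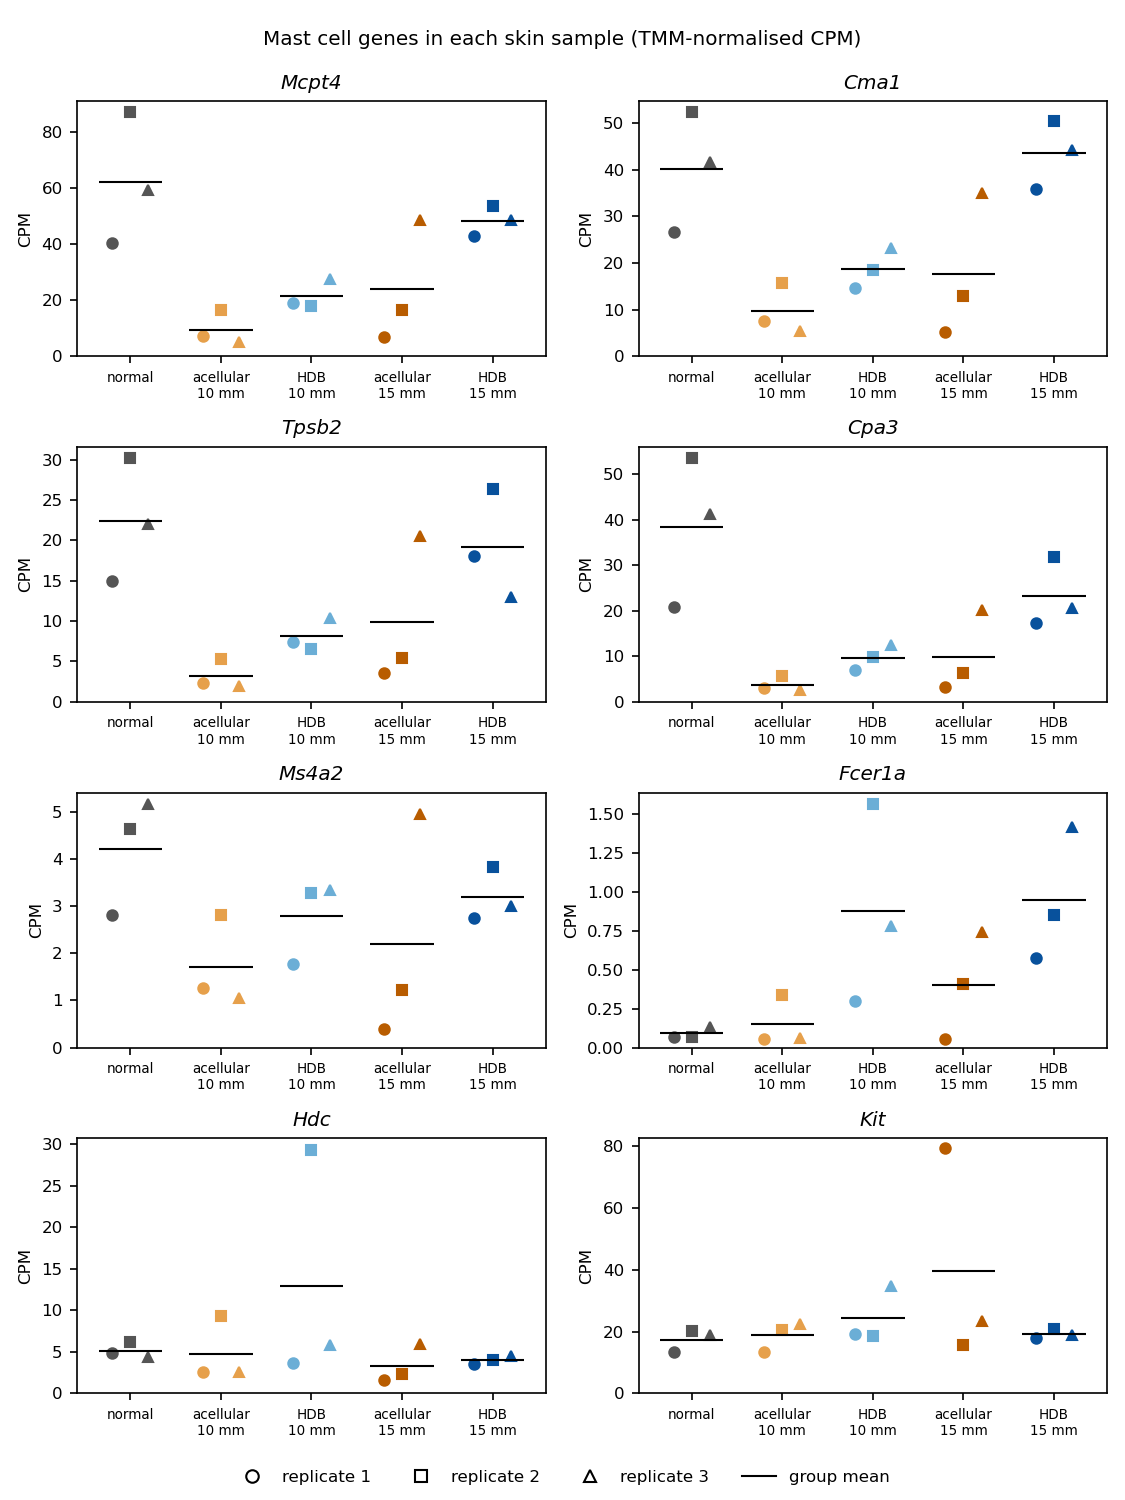
CPM of the 8 measured mast cell genes (y axis, linear, from 0) in each of the 15 skin samples, by group (x axis); symbols mark replicates and bars the group mean. The 4 granule enzymes share 1 pattern with the lowest group mean in acellular 10 mm wounds, while that of Fcer1a is in normal skin. Hdc is highest in HDB 10 mm replicate 2 (29.3 CPM) and Kit in acellular 15 mm replicate 1 (79.3 CPM).

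In acellular 10 mm wounds 4 of the 8 genes were called lower than in normal skin, beside 10.6% of all genes tested. All 3 acellular samples were below all 3 normal samples in 5 genes (the enzymes and Ms4a2), which was so for 27.2% of all genes. Markers of other cells were also called lower in this comparison, beside the same 10.6%: 4 of 4 endothelial, 4 of 4 adipocyte, 4 of 5 macrophage and 2 of 4 fibroblast genes. Of the keratinocyte genes 2 of 4 were called higher (1501 of 15369 genes), and 0 muscle, T cell, general leukocyte or melanocyte genes were called. In acellular 15 mm wounds 1 gene, Cpa3, was called lower (12.6% of all genes), and 1 did not overlap (21.5% of all genes). In HDB 10 mm wounds Cpa3 was called lower (6.23% of all genes), and the 4 enzymes lay wholly below normal skin (23.4% of all genes). Fcer1a also came out as higher there (6.10% of all genes), but it had passed the filter on low counts only through samples in which it is high, so its tests against normal skin are listed and support nothing. DESeq2 called 3 of the 8 there, Cpa3, Mcpt4 (adjusted p = 0.0426) and Fcer1a (20.3% of all genes in either direction), and the same number as edgeR, 4, in acellular 10 mm wounds (28.7% of all genes). In HDB 15 mm wounds 0 genes were called lower (2.51% of all genes) and 0 lay wholly below normal skin (22.6% of all genes); the 1 gene with an unadjusted p under 0.05 (26.9% of all genes), and the 1 called by DESeq2 (14.5% of all genes in either direction), was Fcer1a, with the limit just given. DESeq2 called 2 of the 8 in acellular 15 mm wounds, beside 34.4% of all genes in either direction. The median log2 fold change of the 8 genes was -1.68, -1.06, -0.84 and -0.29 in these 4 comparisons in that order, beside 0.03, 0.06, 0.02 and 0.02 over all genes. The 4 comparisons share the same normal samples.

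Averaged over the 4 wound groups, Cpa3 (log2 fold change -2.00 ± 0.40, adjusted p = 0.00486), Mcpt4 (-1.50 ± 0.42, adjusted p = 0.0193) and Tpsb2 (-1.42 ± 0.42, adjusted p = 0.0239) were lower than in normal skin. These were 3 of 8 genes, beside 16.7% of all genes called lower and 14.2% called higher in this comparison. DESeq2 called 5 of the 8, the 4 enzymes and Fcer1a, beside 35.1% of all genes in either direction. Cpa3 kept its call in all 22 alternative settings, while Mcpt4 and Tpsb2 lost it without normal replicate 2 or 3 (adjusted p up to 0.128 and 0.139). Cma1 had a log2 fold change of -1.06 ± 0.41 that did not pass (adjusted p = 0.0661). In a bulk sample, fewer mast cells and less RNA of these genes in each cell cannot be told apart. Markers of other cells differed in the same comparison, in both directions. All 4 endothelial genes (Pecam1, Cdh5, Kdr and Tek), 4 of 5 macrophage genes and 2 of 4 adipocyte genes were called lower, and the median log2 fold change among muscle genes was -1.90, with 0 of 5 called by edgeR (3 with an unadjusted p under 0.05, beside 43.7% of all genes, and 3 called by DESeq2). The 4 fibroblast genes all had negative estimates (median -0.79), with 0 called by either tool. Of 4 keratinocyte genes 2 were called higher and 1 lower, and the 6 melanocyte genes had a median of 2.19, with 0 called by edgeR and 4 called higher by DESeq2. The part of these tissue differences in the mast cell values was not tested.

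**Figure D2:**
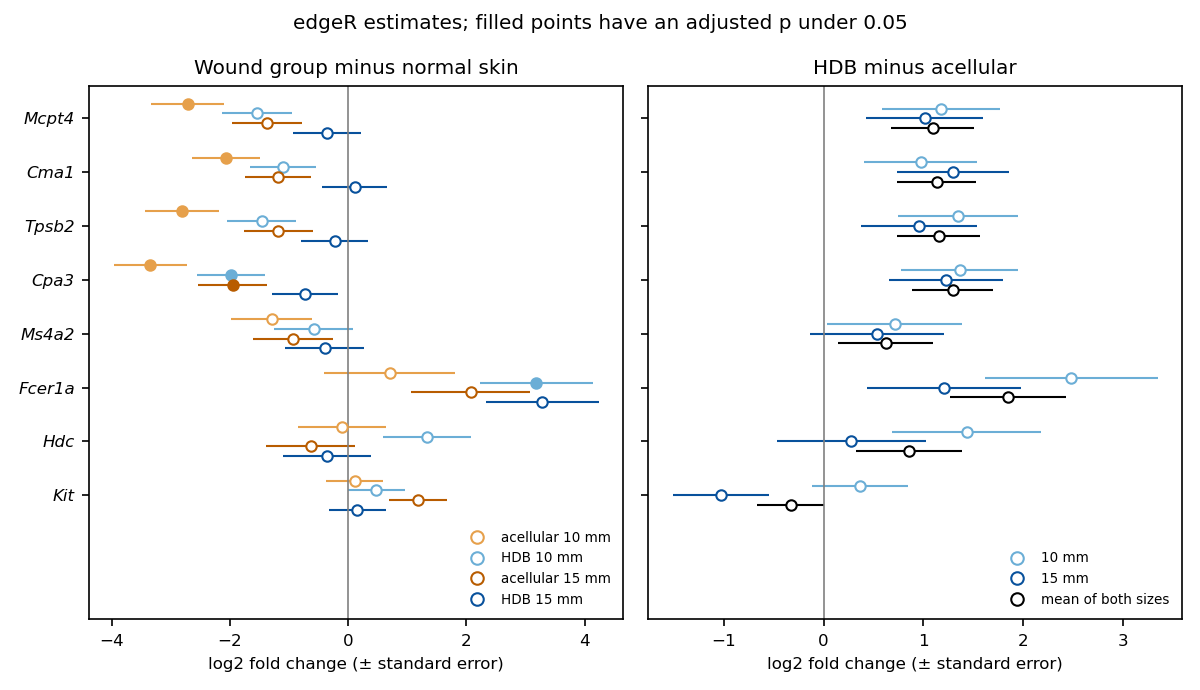
Log2 fold changes with standard errors from edgeR (x axis) for the 8 genes (y axis), for each wound group minus normal skin (left) and for HDB minus acellular wounds (right); filled points have an adjusted p under 0.05. Cpa3 in acellular 10 mm wounds is farthest below normal skin (-3.35), and no point in the right panel is filled.

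HDB against acellular wounds. This comparison asks what the cell-laden beads changed beyond the gel. The granule enzymes were higher on average in HDB wounds of both sizes, but no mast cell gene passed the test. At 10 mm, HDB minus acellular gave log2 fold changes of 1.36 ± 0.59 for Cpa3, 1.35 ± 0.60 for Tpsb2, 1.18 ± 0.59 for Mcpt4 and 0.97 ± 0.56 for Cma1 (adjusted p = 1.00 for each). All 3 HDB samples were above all 3 acellular samples for Mcpt4, Tpsb2 and Cpa3, which was so for 4.53% of all genes, and 0% of all genes were called in either direction. At 15 mm the log2 fold changes were 1.30 ± 0.56 for Cma1 (adjusted p = 0.190), 1.22 ± 0.57 for Cpa3 (adjusted p = 0.221), 1.01 ± 0.58 for Mcpt4 (adjusted p = 0.314) and 0.96 ± 0.58 for Tpsb2 (adjusted p = 0.337). Only Cma1 did not overlap between these groups (8.55% of all genes were higher in HDB without overlap), and 2.93% of all genes were called in either direction (450 genes, or 179 with replicates paired by number). The labels do not say whether same-numbered samples are pairs. Taken as such, the HDB sample was higher in 3 of 3 for Mcpt4, Cma1 and Cpa3, which was so for 19.2% of all genes, and in 2 of 3 for Tpsb2. Fcer1a was also higher in 3 of 3, but it passed the filter on low counts almost only through HDB samples, so this supports nothing.

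Over both sizes, Cpa3 was higher in HDB wounds by a log2 fold change of 1.29 ± 0.41, a 2.45-fold difference that did not pass (adjusted p = 0.261). Tpsb2 (1.15 ± 0.42), Cma1 (1.13 ± 0.40) and Mcpt4 (1.09 ± 0.42) were close to it, with adjusted p of 0.264, 0.261 and 0.275. No gene at all was called over both sizes (0% of all genes). The counts of mast cell genes with an unadjusted p under 0.05 were 3 of 8 in the smaller wounds, 1 of 8 in the larger ones and 5 of 8 for the average of both, beside 3.53%, 23.2% and 15.8% of all genes, so the share at 15 mm was below that of all genes. Fcer1a is among those at 10 mm and for the average, but it passed the filter on low counts almost only through HDB samples, so it supports nothing there. The others were Tpsb2 and Cpa3 at 10 mm and the granule enzymes for the average. DESeq2 called 0 of the mast cell genes in each of the 3, with no adjusted value for Fcer1a at 15 mm or over both sizes, and 0.0991%, 12.0% and 1.51% of all genes in that order. The 8 genes' median log2 fold change was 1.26, 0.98 and 1.11 in that order, beside -0.01, 0.00 and -0.01 over all genes.

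At 15 mm each granule enzyme was called in 1 of 23 alternative settings, the fit without acellular 15 mm replicate 3. That library was singled out for its high mast cell values, so leaving it out raises HDB against acellular by this choice. The calls of that fit, here and below, are a description and support no difference. Without acellular 15 mm replicate 3, which had the highest level of each granule enzyme among the 6 acellular samples, 5 of the 8 genes were called higher in HDB 15 mm wounds (3.37% of all genes): Cma1 (log2 fold change 2.27 ± 0.51, adjusted p = 0.0216), Cpa3 (2.26 ± 0.51, adjusted p = 0.0216), Tpsb2 (2.09 ± 0.49, adjusted p = 0.0235), Mcpt4 (2.04 ± 0.52, adjusted p = 0.0290) and Ms4a2 (1.97 ± 0.57, adjusted p = 0.0414). Over all alternative settings of this comparison the adjusted p ran from 0.0216 to 0.491 for Cma1, 0.0216 to 0.514 for Cpa3, 0.0235 to 0.665 for Tpsb2, 0.0290 to 0.625 for Mcpt4 and 0.0414 to 0.980 for Ms4a2. Over both sizes the 4 enzymes were then called, each with an adjusted p of 0.0486 (0.489% of all genes called higher). In acellular 15 mm wounds against normal skin, 5 genes were then called lower (14.4% of all genes) and Kit higher (log2 fold change 1.45 ± 0.51, adjusted p = 0.0422, in a range of 0.0220 to 0.712 over its alternatives; 23.0% of all genes higher). The library left out was the highest acellular 15 mm sample also in the sums of the fibroblast genes (13526 CPM, against 3051 and 3365 in the other two) and the macrophage genes (213 CPM, against 62.3 and 127). Over all wounds 5 genes were then lower than in normal skin (18.7% of all genes lower, 18.0% higher), with Cma1 (adjusted p = 0.00876) and Ms4a2 (adjusted p = 0.0239) added. Mcpt4 and Tpsb2 were then also called lower in HDB 10 mm wounds (adjusted p = 0.0375 and 0.0336; 8.10% of all genes). No label sets it apart, so the result with all samples stands as the main one.

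**Figure D3:**
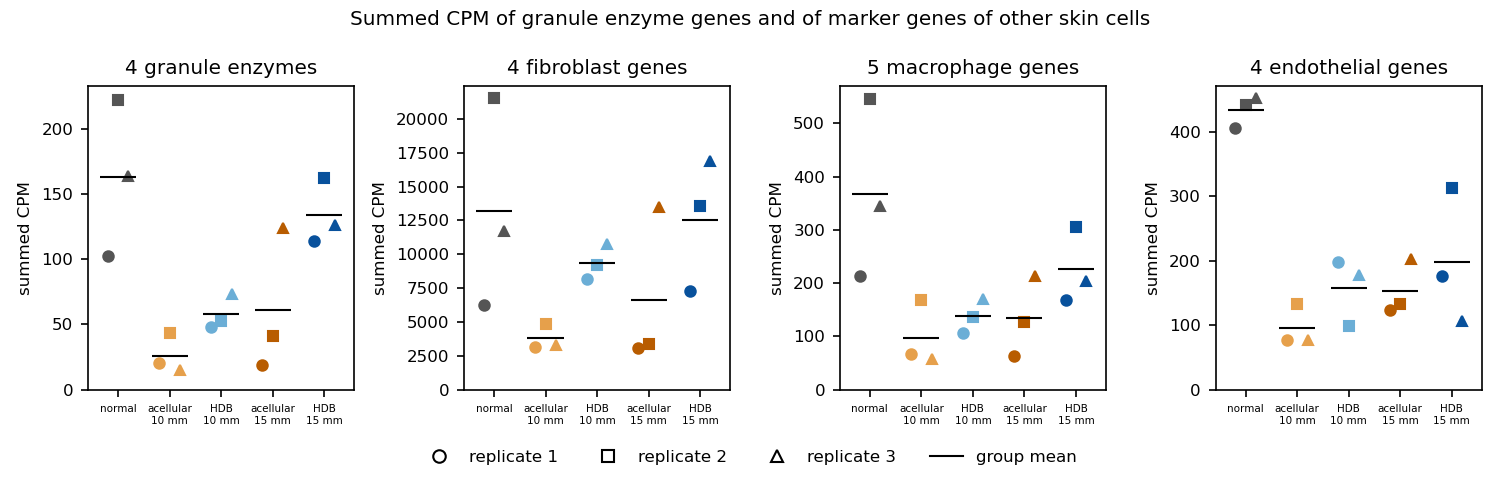
Summed CPM (y axes, linear, from 0, each on its own scale) of Mcpt4, Cma1, Tpsb2 and Cpa3 and of fibroblast, macrophage and endothelial genes in each sample, by group; symbols mark replicates and bars the group mean. Acellular 15 mm replicate 3 (124 CPM of granule enzymes) lies within the range of the HDB 15 mm samples in every panel, as all acellular 15 mm samples do for endothelial genes. Endothelial genes are higher in every normal sample than in any wound sample.

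Fibroblast genes had higher sums in HDB wounds at 10 mm, as the granule enzymes had. Their sum was between 3162 and 4859 CPM in acellular 10 mm wounds and between 8156 and 10732 CPM in HDB 10 mm wounds. Over both sizes all 4 had a positive log2 fold change in HDB against acellular wounds, with a median of 1.06. Of these 4, 0 passed the edgeR test (0% of all genes), 4 had an unadjusted p under 0.05 (15.8% of all genes) and DESeq2 called 0 (1.51% of all genes). Without acellular 15 mm replicate 3 all 4 were called higher in HDB wounds at 15 mm (3.37% of all genes), and 3 of 4 over both sizes (0.489% of all genes; adjusted p = 0.0486 each, and 0.0516 for Pdgfra). Positive estimates were common among the markers of other cells: all 5 T cell (median 0.64), 4 endothelial (0.55), 5 muscle (0.53) and 3 general leukocyte genes (0.41) had them. The 5 macrophage genes had a median of 0.70 and the 4 adipocyte genes of 0.83, also all positive and with 0 called by either tool (1 of 5 and 2 of 4 with an unadjusted p under 0.05, beside the same 15.8%). The 6 melanocyte genes went the other way, all negative with a median of -1.36 and 0 called by either tool. Of 4 keratinocyte genes 3 were positive and 1 negative (median 0.18). The part of these cells in the mast cell difference was not tested.

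Wound size. Between 15 mm and 10 mm wounds, 0 mast cell genes were called among acellular samples and 0 among HDB samples (0% of all genes in each comparison). An unadjusted p under 0.05 was found for 4 and 3 of the 8, beside 17.5% and 12.3% of all genes. Among acellular samples these were Mcpt4, Tpsb2, Cpa3 and Kit, all with positive estimates. Among HDB samples they were Cma1 and Cpa3 with positive estimates and Hdc with a negative one (-1.69, and -0.25 without HDB 10 mm replicate 2). DESeq2 called 0 mast cell genes in each, beside 4.78% and 2.43% of all genes. The granule enzymes had positive estimates in both with all samples: Tpsb2 had a log2 fold change, 15 mm minus 10 mm, of 1.63 ± 0.60 among acellular and 1.24 ± 0.58 among HDB wounds, and Cpa3 of 1.39 ± 0.59 and 1.25 ± 0.57. The acellular values rested on acellular 15 mm replicate 3: without it Tpsb2 had 0.50, Cpa3 0.35 and Mcpt4 0.31 (1.34 with it), and Cma1 turned from 0.89 to -0.089. For the interaction, the difference of the HDB effect between sizes, 0 genes were called (0% of all genes; 0 with an unadjusted p under 0.05, beside 13.4%; 0 by DESeq2, beside 4.42%). The interaction estimate for Cpa3 was -0.14 ± 0.80 on the log2 scale and 0.90 without acellular 15 mm replicate 3, so these data give it no direction. Without that library the estimates for Mcpt4 and Tpsb2 likewise turned from -0.17 and -0.39 to 0.87 and 0.74, and that for Cma1 went from 0.33 to 1.30, none of them called.

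The IgE receptor chains had their highest group means in different groups, Ms4a2 in normal skin and Fcer1a in HDB 15 mm wounds, and a difference between the chains was not tested. Across the 15 samples their log2 CPM gave r = 0.444 (permutation p = 0.0958, adjusted p = 0.190), and the deviations from the group means r = 0.82. Ms4a2, the β-chain that amplifies the signal of the receptor, measured 2.81, 4.62 and 5.16 CPM in normal skin and 1.26, 2.81 and 1.05 CPM in acellular 10 mm wounds. It was 1.78, 3.28 and 3.33 CPM in HDB 10 mm wounds, 0.40, 1.23 and 4.94 CPM in acellular 15 mm wounds and 2.74, 3.82 and 2.99 CPM in HDB 15 mm wounds. Its group means ran from 1.71 ± 0.960 CPM in acellular 10 mm and 2.19 ± 2.42 CPM in acellular 15 mm wounds over 2.80 ± 0.885 and 3.18 ± 0.564 CPM in HDB wounds of these sizes to 4.20 ± 1.23 CPM in normal skin (SD, n = 3), and neighbours in this order overlapped. The difference farthest from 0 against normal skin, that of acellular 10 mm wounds, did not pass (log2 fold change -1.30 ± 0.68, adjusted p = 0.179). Without acellular 15 mm replicate 3 the value in acellular 15 mm wounds went from -0.93 ± 0.67 to -2.37 ± 0.58 and was called (adjusted p = 0.00999).

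Fcer1a, the α-chain that binds IgE, had its lowest group mean in normal skin, where the counts were 1, 1 and 2. The counts were 1, 6 and 1 in acellular 10 mm wounds, 5, 29 and 14 in HDB 10 mm wounds, 1, 7 and 14 in acellular 15 mm wounds and 10, 14 and 25 in HDB 15 mm wounds. Every HDB sample was above every normal sample, and the acellular samples overlapped both. From summed counts the level relative to normal skin was 9.89-fold in HDB 10 mm wounds (95% exact interval 3.62 to 37.8) and 10.4-fold in HDB 15 mm wounds (3.83 to 39.8). It was 4.52-fold in acellular 15 mm wounds (1.54 to 18.1) and 1.68-fold in acellular 10 mm wounds (0.450 to 7.63). These intervals cover counting error only.

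Fcer1a passed the filter on low counts only through the samples in which it is high: counts of 10 or more occurred in HDB samples and in acellular 15 mm replicate 3 alone. A test against normal skin, or of HDB against acellular wounds, therefore gives no support to a difference, and the fitted values are listed as a description. They were a log2 fold change of 3.18 ± 0.96 in HDB 10 mm wounds (adjusted p = 0.0486, and 0.0583 without the filter) and 3.28 ± 0.96 in HDB 15 mm wounds (adjusted p = 0.0626, and 0.0761 without the filter). The first was under the threshold in 9 of 21 alternative settings (adjusted p from 0.0201 to 0.186), and the second in 3 of 21 (0.0263 to 0.222). HDB against acellular wounds over both sizes gave 1.84 ± 0.58 (adjusted p = 0.261). The basophil genes Mcpt8 and Prss34 were at or near 0 throughout: Mcpt8 had summed counts of 0 and 1 in the acellular wounds of 10 and 15 mm, 2 and 3 in the HDB wounds of these sizes and 0 in normal skin, and Prss34 had 2 counts in normal skin and 0 elsewhere. All 4 basophil markers together summed to between 0.114 and 1.21 CPM, most of it Cd200r3, which mast cells also express, and the sum was not higher in HDB wounds (0.355 to 0.791 CPM) than in normal skin (0.422 to 1.21 CPM). Fcer1g, the γ-chain that Fc receptors of several cell types share, averaged 9.75 ± 2.84 CPM in normal skin, 9.23 ± 8.13 CPM in the acellular and 11.5 ± 4.57 CPM in the HDB wounds of 10 mm, and 7.71 ± 6.03 and 11.6 ± 3.28 CPM in those of 15 mm (SD, n = 3 each).

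Hdc, the enzyme that forms histamine from histidine, did not share the pattern of the granule enzymes. It measured 4.85, 6.16 and 4.36 CPM in normal skin, 2.51, 9.32 and 2.51 CPM in acellular 10 mm wounds and 1.64, 2.33 and 5.89 CPM in acellular 15 mm wounds. It was 3.67, 29.3 and 5.78 CPM in HDB 10 mm wounds and 3.48, 4.00 and 4.52 CPM in HDB 15 mm wounds. The 29.3 CPM of HDB 10 mm replicate 2 was more than any other sample, and the rest of the groups overlapped. The log2 fold change in HDB 10 mm wounds against normal skin was 1.33 ± 0.75 (adjusted p = 0.236) with that library and -0.11 ± 0.62 (adjusted p = 0.938) without it. Some genes of other white cells were highest in the same library: the neutrophil receptor Csf3r at 16.5 CPM, Cxcr2 at 4.84 CPM, and Srgn, the granule proteoglycan of mast cells and other leukocytes, at 100.0 CPM. Mmp8 (0.97 CPM) and Retnlg (0.32 CPM) were highest there as well, while Ly6g had 1 count over all 15 samples and is not informative. The 5 neutrophil genes summed to 22.6 CPM against 2.27 to 13.6 CPM in the other 14 samples. Other white cell genes were not highest there: Ptprc, the common leukocyte antigen, was 77.6 CPM against 129 CPM in HDB 10 mm replicate 3, and the sums of 3 general leukocyte genes, 5 T cell genes and 5 macrophage genes were highest in acellular 15 mm replicate 3 (304 CPM), HDB 15 mm replicate 3 (37.5 CPM) and normal replicate 2 (546 CPM).

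Kit, the receptor for stem cell factor, is also used by melanocytes, and its level did not fall with the granule enzymes. It was 13.4, 20.0 and 18.8 CPM in normal skin, 13.4, 20.5 and 22.5 CPM in acellular 10 mm wounds and 19.4, 18.6 and 34.7 CPM in HDB 10 mm wounds. It was 79.3, 15.6 and 23.5 CPM in acellular 15 mm wounds and 18.1, 20.9 and 19.0 CPM in HDB 15 mm wounds. All groups overlapped, and acellular 15 mm replicate 1 was far above the rest. The log2 fold change in acellular 15 mm wounds against normal skin was 1.18 ± 0.49 (adjusted p = 0.0811; 0.0487 by DESeq2) with that library and 0.17 ± 0.31 (adjusted p = 0.712) without it. In HDB against acellular 15 mm wounds it was -1.03 ± 0.48 (adjusted p = 0.222) with that library and -0.018 ± 0.31 (adjusted p = 0.986) without it, and in acellular wounds of 15 against 10 mm 1.07 ± 0.48 (adjusted p = 0.279) and 0.059 ± 0.31 (adjusted p = 0.930). In the same library 6 melanocyte genes summed to 2372 CPM, of which Dct gave 814, Tyrp1 680 and Pmel 557, against 69.2 to 323 CPM in the other 11 wound samples and 54.5 to 103 CPM in normal skin. Kitl, the gene of stem cell factor, was also highest there at 186 CPM, while its granule enzymes summed to only 18.9 CPM. The part of melanocytes in the Kit values was not tested.

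**Figure D4:**
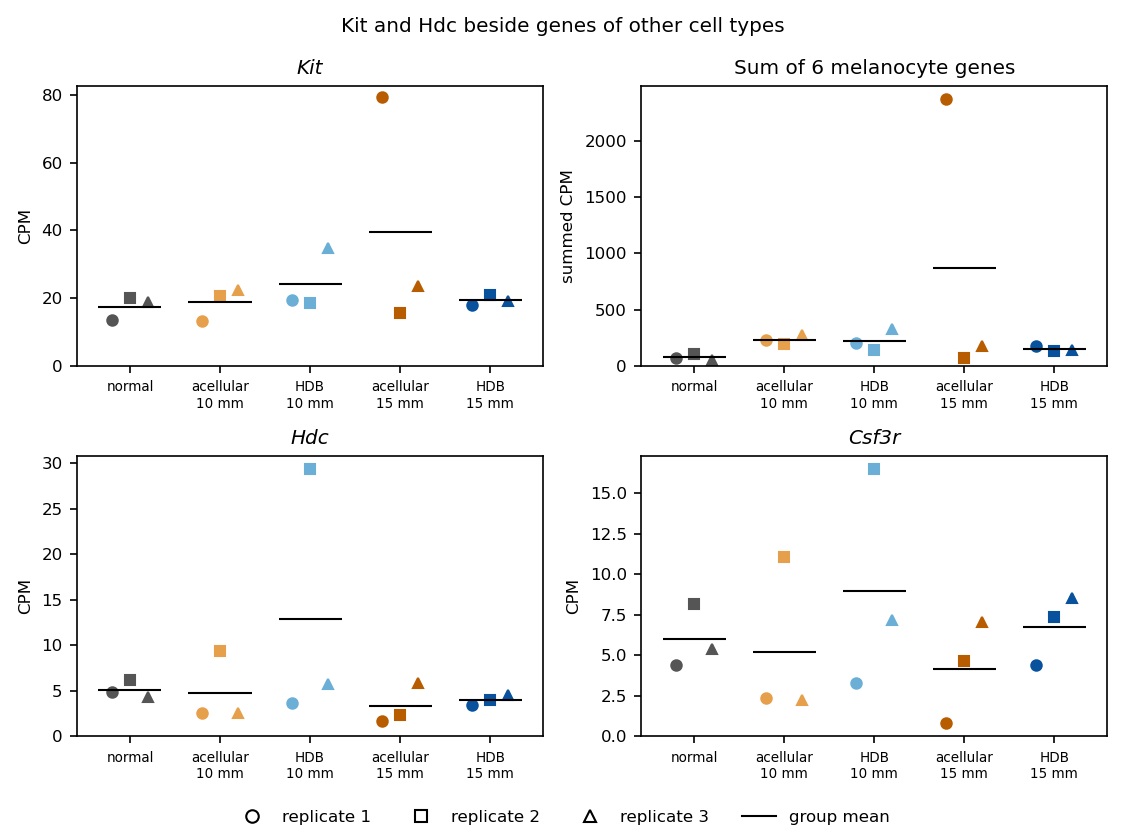
CPM of Kit and Hdc (left) beside the summed CPM of 6 melanocyte genes and the CPM of the neutrophil receptor Csf3r (right) in each sample, by group; y axes are linear and start at 0, symbols mark replicates and bars the group mean. Acellular 15 mm replicate 1 is highest for Kit and for the melanocyte genes (2372 CPM), and HDB 10 mm replicate 2 for Hdc and Csf3r (16.5 CPM).

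Across the 15 samples the 4 granule enzymes varied together. Pearson's r of log2 CPM was between 0.955 and 0.982 for their 6 pairs, and Spearman's rho between 0.932 and 0.971 (permutation p = 1e-05, the smallest that 100000 permutations can give, for each r; adjusted p = 4.67e-05 over all 28 pairs of genes). Without the 2 samples farthest from the median r stayed between 0.956 and 0.981, and r of the deviations from the group means was between 0.925 and 0.988. Ms4a2 correlated with the enzymes at r between 0.811 and 0.894 (permutation p of 0.00021 or below). Hdc with Ms4a2 gave r = 0.624 and rho = 0.707 (permutation p = 0.0169 and 0.00383, adjusted p = 0.0429 and 0.00975), falling to r = 0.453 without the 2 farthest samples. Kit had negative r with each of the other 7 genes, between -0.437 and -0.0742, and none of these passed (permutation test, adjusted p of 0.190 or above). The sign of these values rests on few samples: without the 2 farthest samples r was positive for 5 of the 7, between 0.225 and 0.366, and negative for Tpsb2 (-0.411) and Cpa3 (-0.272), and rho was positive for 4 of the 7.

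**Figure D5:**
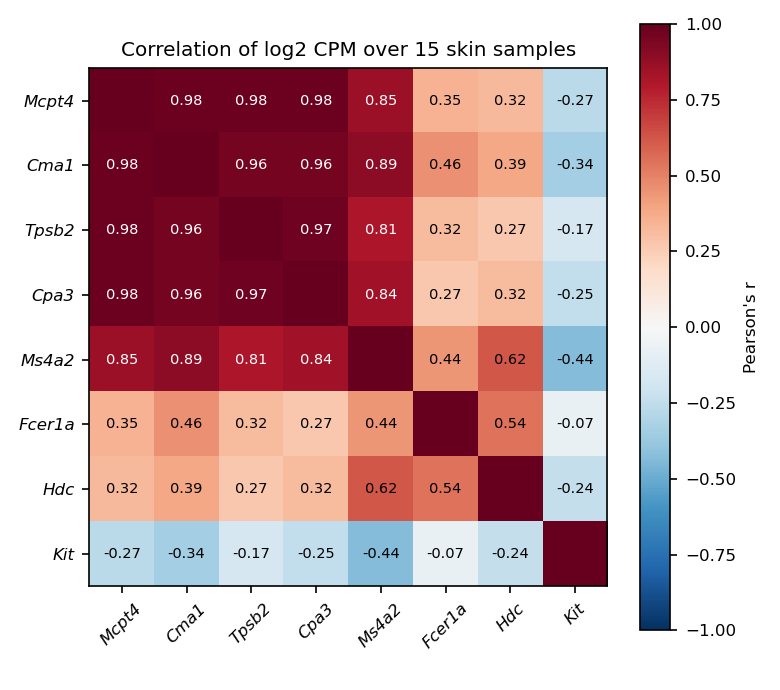
Pearson's r of log2 CPM between each pair of the 8 genes over 15 samples, written in each cell and coloured from -1 to 1. The 4 granule enzymes form a block with r of 0.955 or more, and Ms4a2 joins it at 0.811 to 0.894.

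The genes outside the list whose log2 CPM over the 15 samples was most like the mean of the 8 scaled genes were Lum (r = 0.963), Pdia5 (0.951), C1qtnf6 (0.935), Fbln5 (0.935), Col3a1 (0.932), Adamts2 (0.932), Themis2 (0.931), Clec4a1 (0.928), Rpl39l (0.927) and Slc7a7 (0.927). The order is a description over samples that share their libraries. Lum, Fbln5, Col3a1 and Adamts2 are genes of the dermal matrix and its assembly, and Clec4a1 and Themis2 are expressed in myeloid cells. Lum averaged 90.9 ± 48.3 CPM in the acellular and 267 ± 106 CPM in the HDB wounds of 10 mm, 146 ± 119 and 324 ± 138 CPM in those of 15 mm, and 361 ± 171 CPM in normal skin, the group order of Cpa3 save that the 10 mm HDB and 15 mm acellular means of Cpa3 were nearly equal.

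Further mast cell genes were read from lists by function, again against normal skin over all wounds. Among 10 genes of growth and cell fate, 8 were tested, 4 were called lower and 1 higher, with a median log2 fold change of -0.51; over all genes 16.7% were lower and 14.2% higher, which is also the background for the lists that follow. Gata2 (-1.28 ± 0.33, adjusted p = 0.0149) and Tal1 (-1.07 ± 0.27, adjusted p = 0.0117), transcription factors of the mast cell lineage that endothelium also expresses, were lower, as were Stat5b (-0.73 ± 0.22, adjusted p = 0.0253), which relays Kit and cytokine signals, and Kitl (-0.87 ± 0.30, adjusted p = 0.0468). Mitf, a regulator of mast cells and melanocytes, was higher (0.48 ± 0.14, adjusted p = 0.0237). Gata2 was 17.6, 18.3 and 18.8 CPM in normal skin and no more than 12.4 CPM in any wound sample, so the groups did not overlap.

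All 7 other surface receptors had negative estimates, with a median of -0.65, and 2 were called lower: Adora3, an adenosine receptor (-1.48 ± 0.40, adjusted p = 0.0162), and Ptger3, a prostaglandin E receptor (-1.28 ± 0.43, adjusted p = 0.0400). Mrgprb2, in the same list and not called, averaged 14.6 ± 1.33 CPM in normal skin (SD, n = 3). Its mean was 11.6 ± 1.60 CPM in acellular and 10.2 ± 2.15 CPM in HDB 10 mm wounds, an order unlike that of the granule enzymes. At 15 mm it was 7.73 ± 5.90 CPM in acellular and 12.4 ± 3.81 CPM in HDB wounds. All 6 genes of eicosanoid and amine synthesis had negative estimates as well (median -0.76), and Alox5 (-1.75 ± 0.30, adjusted p = 0.00251) and Ltc4s (-1.32 ± 0.35, adjusted p = 0.0159), which make leukotrienes in mast cells and macrophages, were called lower. Of the genes of histamine breakdown and reception, 3 of 5 were tested and the receptor Hrh1 was lower (-1.24 ± 0.43, adjusted p = 0.0444). Of 12 genes of signalling below the IgE receptor, 1 was called lower, the kinase Fyn (-0.68 ± 0.13, adjusted p = 0.00451), and the median was -0.02. Among 10 other granule genes 5 were tested, and Slc18a2, which loads amines into the granule, was higher (0.66 ± 0.19, adjusted p = 0.0237). The mucosal proteases Mcpt1 and Mcpt2 had at most 6 summed counts in any group. Of these 12 called genes, Alox5 and Fyn kept the call in all 22 alternative settings. Kitl kept it in 11 of 22, Ptger3 in 11 of 22 and Hrh1 in 10 of 21, with adjusted p up to 0.127, 0.313 and 0.171, and the other 7 lost it only where normal replicate 1, 2 or 3 was left out. None of these lists is expressed by mast cells alone. Without acellular 15 mm replicate 3, 4 of 7 receptors and 4 of 6 lipid genes were called lower over all wounds (18.7% of all genes in that fit), and in acellular 15 mm wounds against normal skin the counts rose from 1 to 5 of 7 receptors and from 3 to 6 of 6 lipid genes (14.4% of all genes lower).

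In HDB against acellular wounds over both sizes 0 genes of these 6 lists were called by edgeR or by DESeq2 (0% and 1.51% of all genes). The counts with an unadjusted p under 0.05 were 3 of 8 for growth and fate, 1 of 12 for signalling, 1 of 5 for other granule genes, 1 of 3 for histamine handling and 0 for the receptors and the lipid genes, beside 15.8% of all genes. Estimates were nonetheless positive in all 7 receptors (median 0.42), all 6 lipid genes (median 0.43) and 10 of 12 signalling genes (median 0.44), beside the median of -0.01 over all genes. At 15 mm 1 signalling gene passed: Plcg1, a phospholipase used in most cell types, was lower in HDB wounds (log2 fold change -0.74 ± 0.14, adjusted p = 0.0250; 0.0437 with the replicate block; 2.93% of all genes in either direction). Without acellular 15 mm replicate 3, 3 lipid genes, 1 receptor and 1 gene of histamine handling were called higher there (3.37% of all genes). Plcg1 passed in 17 of 23 alternative settings (adjusted p from 3.29e-05 to 0.464) and failed without HDB 15 mm replicate 1, 2 or 3, with the transcript length trend removed (with or without the replicate block) and with only the groups compared.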

How the data were processed

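The authors sequenced poly-A RNA of mouse skin and deposited 1 table of estimated counts per gene (expected counts) for the 15 samples. The submitters' processing notes name HISAT2 2.0.4, Bowtie2 2.2.5, RSEM 1.2.12 and the genome build GRCm38.p6. No step of this removes reads of the grafted human cells, as far as the sources used here say. RSEM divides reads shared by related genes, so the levels of close paralogs depend on that division.

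The expected counts were rounded to whole numbers. Genes were kept by filterByExpr of edgeR 4.0.16 (R 4.3.3), which left 15369 of 18929, and the TMM-normalised CPM given in the text were computed from the counts. A quasi-likelihood model with the 5 group means was fitted to all 15 samples, and 11 comparisons were tested, each adjusted over all genes by the method of Benjamini and Hochberg with a threshold of 0.05. The standard error of a log2 fold change is its size divided by the square root of F. Correlations used log2 CPM with a prior count of 2 and 100000 permutations (scipy 1.17.1). Length scaling used the longest GENCODE vM21 transcript. The fitting code was tested on simulated data.

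Alternatives were DESeq2 1.42.0, its size factors in edgeR, no filter on low counts, a mean of at least 50 counts, removal of a trend with transcript length (96.4% of genes had a length), a fit of just the groups in a comparison, a block for the replicate number, and each of the 15 samples left out. The deviations of same-numbered acellular and HDB samples from their group means had correlations of 0.397, 0.167 and 0.183 at 15 mm. At 10 mm these were -0.312, 0.035 and -0.078. Same-numbered samples of other groups ranged from -0.544 to 0.489, and the labels do not say what a number stands for. The values thus do not show that the numbers mark pairs, and counts by pair are a description.

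The genes described by name were the 9 listed, the most abundant and the called genes of each list, and the 10 most like the listed genes. The genes, lists and tests were chosen with earlier results of these data known. For a list, counts and medians are given without a test of the list itself.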

Additional observations from a re-analysis of the deposited data

How the results depend on the processing

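Each result was recomputed under 8 or fewer other settings and with each of the 15 samples left out. Of the values for single genes, 1865 kept their direction and side of the threshold, 37 gained the call, 41 lost it and 45 changed sign. Among the granule enzymes with all samples, the smallest difference called was 2.68-fold and the largest that did not pass was 3.09-fold, and Fcer1a rests on 1 to 29 counts per sample. With DESeq2, 2 of the 8 genes were called in acellular 15 mm wounds against normal skin (34.4% of all genes), 3 in HDB 10 mm wounds (20.3%), 1 in HDB 15 mm wounds (14.5%) and 5 over all wounds (35.1%). With only the groups compared, 0 were called in acellular 15 mm and 4 in HDB 10 mm wounds. In HDB 10 mm wounds 0 were called without the filter on low counts, 1 with a mean of at least 50 counts and 1 with the length trend removed. The replicate block changed the sign of Hdc over all wounds (log2 fold change -0.0963, and -0.0959 with the length trend removed as well); over all wounds the adjusted p of Fcer1a, which passed the filter only through wound samples and is no support, went to 0.0363, and the block changed no mast cell call of HDB against acellular wounds, where 0 were called with and without it. In the interaction the block turned Cpa3 to 0.055 and Ms4a2 to 0.17, and the length trend removed turned Cma1 to -0.24 (-0.040 with the block); among HDB wounds of 15 against 10 mm it turned Fcer1a to -0.11. The cause of these changes was not tested.

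Leaving out 1 sample gave 1 to 4 called genes in acellular 10 mm wounds against normal skin, 0 to 6 in acellular 15 mm, 0 to 4 in HDB 10 mm, 0 to 1 in HDB 15 mm and 1 to 5 over all wounds; HDB against acellular gave 0 to 5 at 15 mm and 0 to 4 over both sizes. In the same fits and order the number of all genes called was 800 to 5582, 2304 to 5805, 78 to 4045, 34 to 2478 and 1848 to 6229, then 0 to 2322 and 0 to 229. In acellular 10 mm wounds Cpa3 kept its call throughout. Tpsb2 lost it without acellular 10 mm replicate 1, Mcpt4 without that sample or normal replicate 2, and Cma1 without either, acellular 10 mm replicate 3 or normal replicate 3. In acellular 15 mm wounds Cpa3 lost it without acellular 15 mm replicate 1 or 2 or normal replicate 2 or 3. Log2 fold changes that changed sign in some of these fits, none of them called, ran from -0.054 to 0.31 (Kit), -0.59 to 1.08 (Fcer1a) and -1.02 to 0.21 (Hdc) in acellular 10 mm wounds against normal skin, from -0.11 to 1.80 (Hdc) in HDB 10 mm, from -0.10 to 0.35 (Cma1) and -0.53 to 0.047 (Tpsb2) in HDB 15 mm, and from -0.29 to 0.22 (Hdc) over all wounds. In HDB against acellular wounds they ran from -0.042 to 1.01 (Hdc) at 15 mm and from -0.52 to 0.17 (Kit) over both sizes. For wound size they ran from -0.089 to 1.45 (Cma1), -1.07 to 0.92 (Ms4a2) and -1.27 to 0.39 (Hdc) among acellular and from -0.49 to 0.025 (Kit), -0.072 to 0.33 (Ms4a2) and -0.32 to 0.80 (Fcer1a) among HDB wounds, and for the interaction from -0.82 to 0.87 (Mcpt4), -0.24 to 1.30 (Cma1), -0.97 to 0.74 (Tpsb2), -0.56 to 0.90 (Cpa3), -0.74 to 1.26 (Ms4a2) and -2.08 to 0.26 (Hdc).

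The number of all genes called in HDB against acellular 15 mm wounds was 450 in the main analysis, 1770 with DESeq2, 695 with a mean of at least 50 counts, 199 without the filter, 179 with the replicate block, and 0 with the length trend removed or only the groups compared. It was also 0 without HDB 15 mm replicate 1, 2 or 3, and 2322 without acellular 15 mm replicate 3. Over both sizes it was 0, and 223 with DESeq2. In HDB 15 mm wounds against normal skin it was 796, against 2349 with DESeq2, 3401 with only the groups compared and 237 with the block. In HDB 10 mm wounds it was 1895, against 3288, 2988 and 1187 in that order. With only the groups compared it was 6196 in place of 3125 in acellular 10 mm wounds and 972 in place of 4642 in acellular 15 mm wounds.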

Other observations

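Of the ratios of the other granule enzymes to Cpa3, that of Cma1 did not overlap between wounds and normal skin. Within a sample, the count of Cma1 was between 1.55 and 2.78 times that of Cpa3 in the 12 wound samples and between 0.981 and 1.29 times in normal skin. The ratio of Fcer1a to Cpa3 was between 0.0172 and 0.159 in wounds and between 0.00125 and 0.00339 in normal skin. That of Kit to Cpa3 was between 0.657 and 24.1 in wounds and between 0.375 and 0.648 in normal skin. The ranges of Mcpt4 (1.68 to 2.89 in wounds, 1.44 to 1.95 in normal skin) and Tpsb2 (0.634 to 1.09 and 0.536 to 0.722) to Cpa3 overlapped. The ratios do not depend on the scaling of libraries. Cpa3 was taken as the denominator after its values had been seen, as the enzyme farthest below normal skin, so the ratios are a description and no test of them is given.

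Ms4a2 relative to Cpa3 was highest in acellular 10 mm wounds, with ratios of 0.400, 0.495 and 0.419, and lay between 0.0865 and 0.136 in normal skin and between 0.120 and 0.159 in HDB 15 mm wounds. It was 0.254, 0.335 and 0.269 in HDB 10 mm and 0.121, 0.193 and 0.245 in acellular 15 mm wounds.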
